A study of Mus musculus with 7 samples.

Results

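The extracellular matrix genes described here encode the glycoproteins, laminins and proteoglycans of connective tissue and of the basement membrane, together with the cell surface proteoglycans and the enzymes that build heparan sulfate. They were taken from a fixed list of 42 gene names. Of these, 36 matched a row among the 13376 rows of the deposited expression table and are described, while Fn1, Eln, Mfap4, Mfap5, Lum and Lama4 were not analysed here. The RNA came from proliferating C2C12 cells, an established mouse myoblast line, with 2 libraries treated with an siRNA against the long noncoding RNA lnc-31 and 2 treated with a scrambled control siRNA. In a second experiment biotinylated antisense probes pulled down RNA from C2C12 cells, with 1 library for the specific probes, which the labels call ODD and which are taken to target lnc-31 and called lnc-31 probes here, and 1 library for control probes labelled lacZ, a bacterial gene. The pull-down input library was not analysed here. All libraries come from the same cell line, and whether the libraries within a group are independent cultures is not stated in the labels. The p-values therefore reflect library-to-library spread, which may be technical.

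The matrix around a muscle cell has an inner layer, the basement membrane, and an outer interstitial layer. Laminins are cross-shaped trimers of an alpha, a beta and a gamma chain that assemble on the cell surface through integrins and dystroglycan, and nidogens and perlecan tie the laminin network to collagen IV. In the interstitial layer fibrillins form microfibrils on which elastic fibres are built with the help of fibulins, and small proteoglycans such as decorin and biglycan coat collagen fibrils and hold growth factors. Matricellular proteins such as periostin and tenascin-C serve signalling more than structure, and in muscle they are known for their appearance during development and repair. Syndecans and glypicans carry heparan sulfate chains, which the EXT1 and EXT2 polymerase makes, on the cell surface.

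Values are FPKM, which are fragment numbers per transcript length and per sequenced library, so levels can be compared between genes. The number of reads behind each value is unknown. The row that names Mir31, the microRNA at the lnc-31 locus, also carries the identifier XLOC_026180. This row was at 12.1 and 14.1 FPKM with lnc-31 siRNA and at 13.4 and 15.6 FPKM with scrambled siRNA (log2 fold change -0.14, limma adjusted p = 0.38). It was not taken as a direct measure of lnc-31, and a fall of the targeted RNA was not shown by it. Every difference below is therefore one between libraries labelled lnc-31 siRNA and libraries labelled scrambled siRNA. Libraries of a group correlated across rows with Spearman coefficients of 0.991 (lnc-31 siRNA) and 0.993 (scrambled siRNA). Principal component analysis placed lnc-31 siRNA 1 at 39.1 and the other libraries between -16.3 and -10.4 on the leading axis (41.4% of variance), and counts without each library are given below. A mitochondrial row, mt-Nd2, reached 395110 FPKM in the library scrambled siRNA 2 but 2876 to 3401 FPKM elsewhere, and FPKM summed to between 1515600 and 2466050 per library. Of the myoblast markers, 7 of 9 were measured, and Myod1, Myf5 and Des were at 35.2 FPKM or more in every library, while Pax7 was not analysed here. Sgcd and Musk of the same list lay lower, at 8.37 to 10.1 FPKM. Markers of other lists were present too, with 5 of 6 measured fibroblast markers and 1 of 2 measured epithelial markers at a mean of 1 FPKM or more. The fibroblast marker Ly6a was at 93.2 to 102 FPKM. All 6 endothelial markers, among them Pecam1, and 4 of 6 blood markers, among them Ptprc, were not analysed here, so these cell types were not checked by their defining genes.

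Of the 36 genes, 35 passed the filter of a mean of at least 1 FPKM and were tested, and fibrillin-2 (Fbn2) did not. With lnc-31 siRNA 11 of the 35 rose and none fell (limma on log2(FPKM + 1), Benjamini-Hochberg adjusted p under 0.05 over all rows). Over all 11500 rows tested, 12.4% were called, with 5.64% higher and 6.78% lower. At an unadjusted p under 0.05, 13 matrix genes were higher and 0 lower, against 14.5% and 16.4% of all rows. Their median log2 fold change was 0.09, with a range from -0.14 to 0.99, and the median over all rows was -0.01. The groups did not overlap in 23 of the 35, with 21 higher and 2 lower, and over all rows 60.2% did not overlap, with 28.5% higher and 31.7% lower. The 11 that rose included Postn, Serpine2, Thbs1, Thbs2 and Tnc of the role of matricellular glycoproteins. The others were Dcn and Vcan among the matrix proteoglycans, Lamc1 and Nid1 of the basement membrane, Fbn1 of the microfibrils and Sdc2 of the cell surface. Postn and Dcn were past 1.5-fold, and the other 9 were below it. The count was 4 without lnc-31 siRNA 1, 3 without lnc-31 siRNA 2, and 2 without scrambled siRNA 1 or scrambled siRNA 2, and Postn and Dcn were called in each of these fits.

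**Figure D1:**
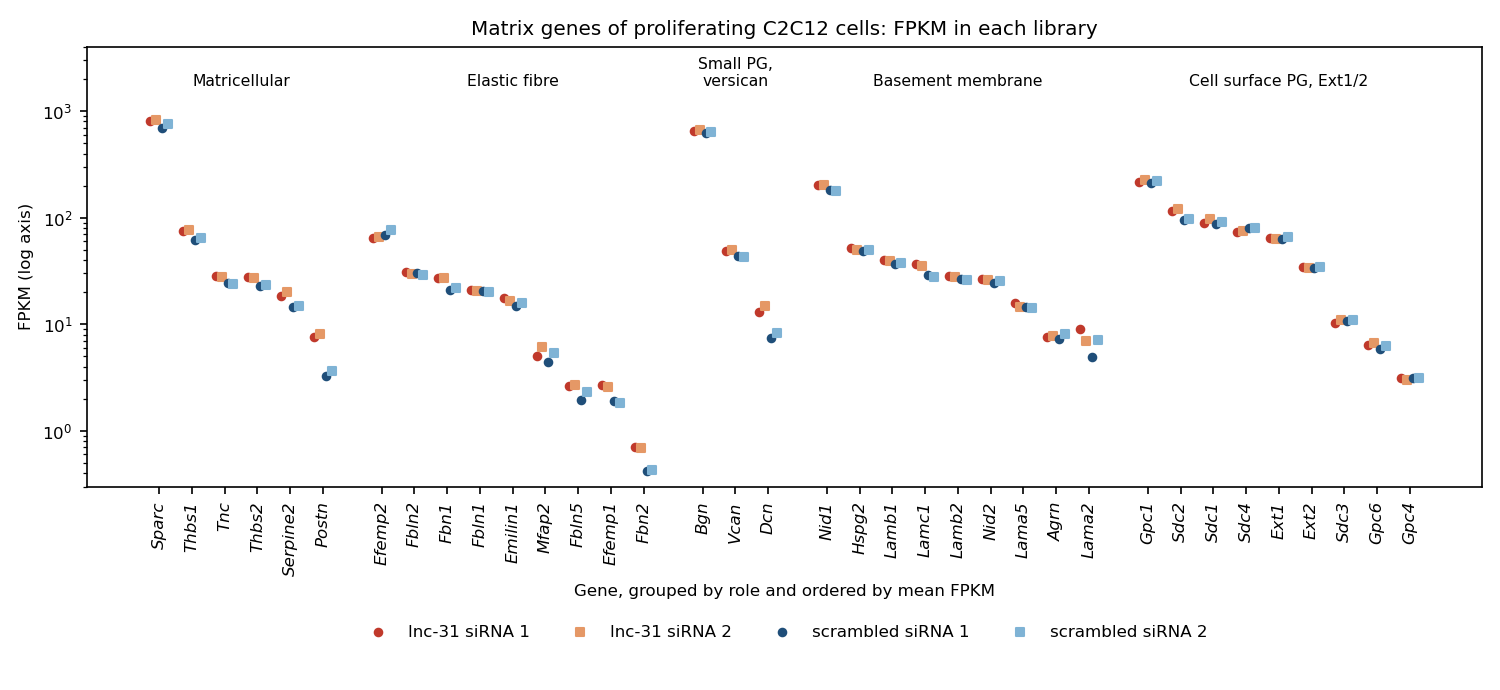
FPKM of the 36 matrix genes on a log axis, 1 point per library, grouped by role (PG, proteoglycan) and ordered by mean FPKM within each role. Sparc and Bgn lie highest, at 621 to 824 FPKM, and Fbn2 lowest, at 0.421 to 0.708 FPKM.

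The levels of the 36 genes spanned a wide range. Sparc, which encodes a collagen-binding glycoprotein, was the most abundant, at rank 138 of the 13376 rows by mean FPKM, followed by biglycan (Bgn) at rank 160. These genes gave 50.4% and 50.8% of the summed FPKM of the 36 with lnc-31 siRNA, and 50.3% and 50.9% with scrambled siRNA, so that their share differed by less than the spread between libraries. Glypican-1 (Gpc1, rank 394) and nidogen-1 (Nid1, rank 475) came next. At the low end were Fbn2 (rank 12213), Efemp1 (rank 10415), Fbln5 (rank 10320) and Gpc4 (rank 9907). Postn, which had the largest difference, was at rank 8652. The summed FPKM of the 36 was 2875 and 2926 with lnc-31 siRNA and 2626 and 2731 with scrambled siRNA. The groups do not overlap in this sum, but with 2 libraries against 2 an exact two-sided permutation test cannot go below p = 0.333, so no test is given for sums and ratios here and below. In bulk RNA, fewer cells of a type and less RNA per cell cannot be told apart.

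**Figure D2:**
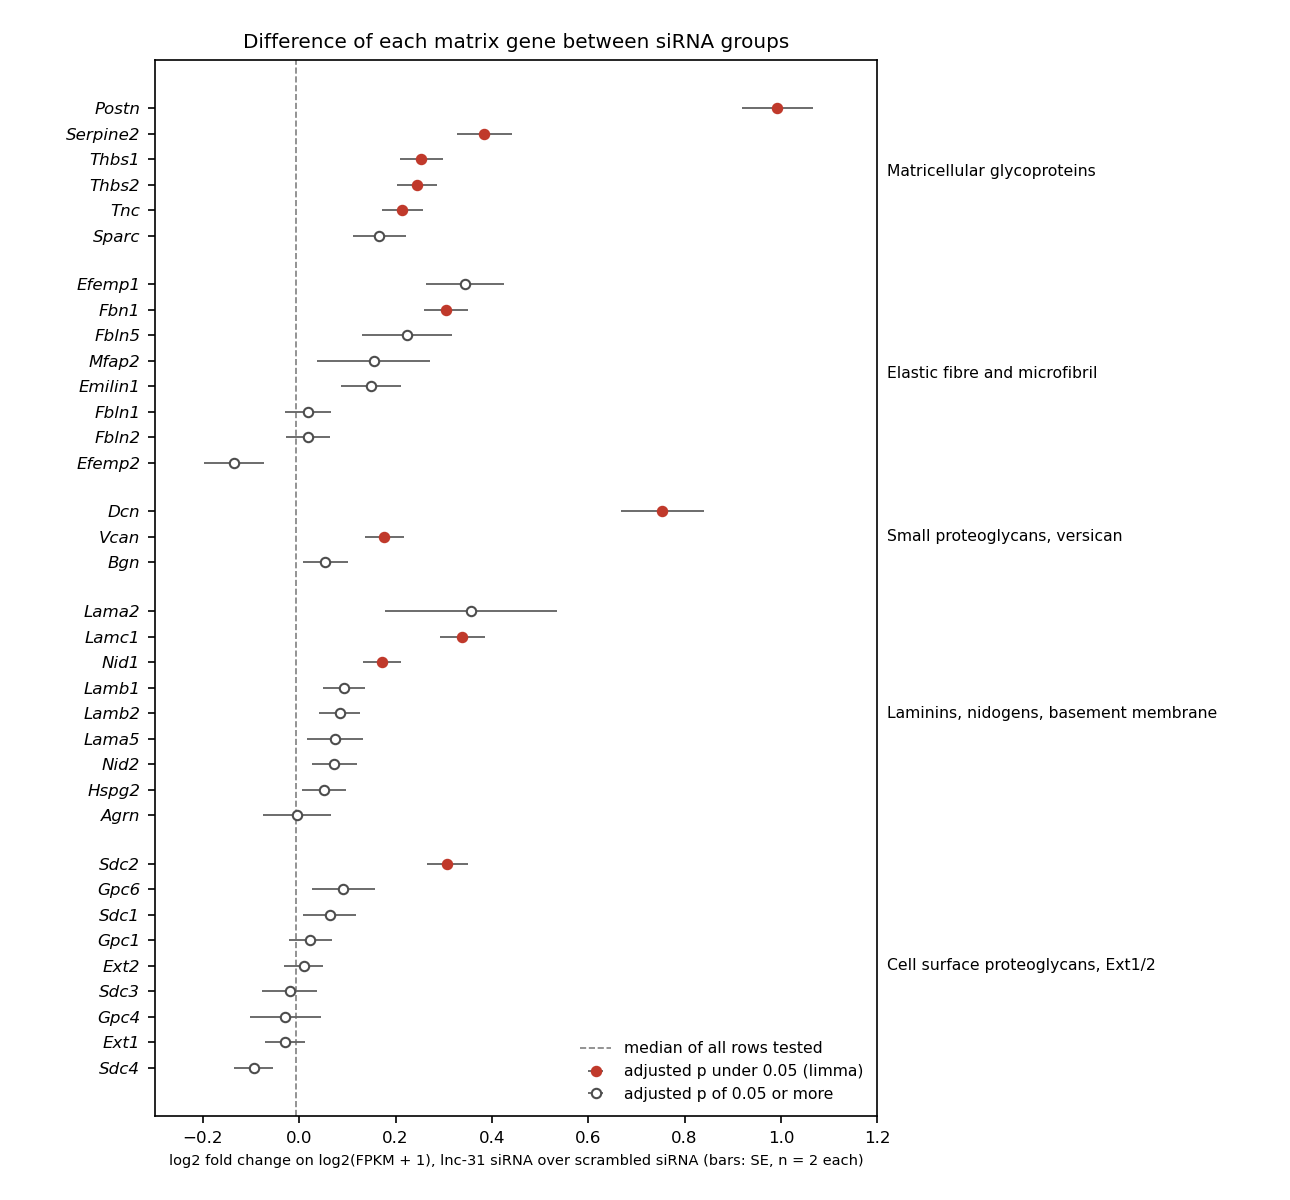
Log2 fold change on log2(FPKM + 1), lnc-31 siRNA over scrambled siRNA, for the 35 matrix genes tested, by role. Points are limma estimates with their SE (n = 2 each), filled where the adjusted p is under 0.05, and the dashed line is the median of all rows (-0.01). The 11 filled points all lie right of the line.

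In the role of matricellular glycoproteins, which here includes a protease inhibitor, 5 of 6 rose. All 6 were higher without overlap (median log2 fold change 0.25). This holds for the genes placed in the role and not for matricellular genes as a class. The related list with other matricellular genes was mixed, with 10 of 17 higher and 4 lower without overlap. Ctgf, Spp1 and Cyr61 were among the 4. Periostin (Postn), a secreted ligand of integrins known from injured and growing connective tissue, was at 7.63 and 8.07 FPKM with lnc-31 siRNA and at 3.27 and 3.63 FPKM with scrambled siRNA. Both lnc-31 siRNA libraries were above both scrambled siRNA libraries, by a ratio of means of 2.28 (log2 fold change 0.99, SE 0.074, limma adjusted p = 0.0055). Its adjusted p was 0.020 to 0.031 with any 1 library left out. Serpine2, the protease inhibitor also called protease nexin-1, was at 18.6 and 20.3 FPKM with lnc-31 siRNA and at 14.6 and 14.7 FPKM with scrambled siRNA (log2 fold change 0.38, SE 0.057, adjusted p = 0.017). The scrambled siRNA libraries lay close together and the lnc-31 siRNA libraries further apart. Its call was kept without lnc-31 siRNA 1 (adjusted p = 0.036) and lost without lnc-31 siRNA 2 (0.064), scrambled siRNA 1 (0.083) or scrambled siRNA 2 (0.079).

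The thrombospondins, secreted glycoproteins that bind CD36 and CD47 on cells, moved by nearly the same fold from different levels. Thbs1 was at 74.6 and 76.7 FPKM with lnc-31 siRNA and at 61.6 and 65.0 FPKM with scrambled siRNA (log2 fold change 0.25, SE 0.045, limma adjusted p = 0.026). Thbs2 was at 27.6 and 27.4 FPKM with lnc-31 siRNA and at 22.9 and 23.2 FPKM with scrambled siRNA (log2 fold change 0.24, SE 0.042, adjusted p = 0.024). Tenascin-C (Tnc), a large glycoprotein of regenerating muscle and tendon, was at 28.4 and 27.8 FPKM with lnc-31 siRNA and at 24.2 and 24.1 FPKM with scrambled siRNA (log2 fold change 0.21, SE 0.042, adjusted p = 0.034). In all 3 the groups were separate and the differences were small, with ratios of means of 1.19, 1.19 and 1.17. None of the 3 calls was kept when any 1 library was left out (lowest adjusted p 0.071 for Thbs1, 0.091 for Thbs2 and 0.10 for Tnc). Sparc was at 805 and 824 FPKM with lnc-31 siRNA and at 701 and 752 FPKM with scrambled siRNA. Its groups were separate as well, but its difference did not pass the test (log2 fold change 0.17, SE 0.055, adjusted p = 0.11), and it was called under quantile normalization and under median of ratios scaling.

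RefSeq promoter windows run from 250 bases before to 50 bases after a start listed for the gene on build GRCm38.p6. Such windows were available for 27 of the 36 genes, 7 of them among the 11 that rose. Those of Postn, Thbs2, Serpine2 and Sparc are shown because they belong to the role of matricellular glycoproteins and differ in composition. Capitals mark matches, on either strand, of 7 motifs. The AP-1 motif was searched as TGANTCA and the TEAD motif was searched as GGAATG. For the muscle E-box the letters were CAGCTG, and for the SMAD motif they were CAGACA. The GC box was spelled GGGCGG and the TATA box was spelled TATAAA, while TGATGCA stood for the core of the ATF4 element.
Postn (chr3:54360857-54361156, plus strand): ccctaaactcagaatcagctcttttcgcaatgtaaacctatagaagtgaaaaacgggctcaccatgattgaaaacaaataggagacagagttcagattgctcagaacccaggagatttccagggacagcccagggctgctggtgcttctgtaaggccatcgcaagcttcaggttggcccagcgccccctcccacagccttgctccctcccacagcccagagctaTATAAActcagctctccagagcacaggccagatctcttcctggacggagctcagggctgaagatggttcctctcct
Thbs2 (chr17:14694213-14694512, minus strand): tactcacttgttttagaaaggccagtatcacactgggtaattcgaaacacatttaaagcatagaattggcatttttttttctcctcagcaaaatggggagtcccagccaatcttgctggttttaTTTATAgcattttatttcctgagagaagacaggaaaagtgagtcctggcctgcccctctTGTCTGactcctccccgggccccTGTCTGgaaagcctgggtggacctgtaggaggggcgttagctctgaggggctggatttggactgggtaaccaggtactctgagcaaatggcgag
Serpine2 (chr1:79858616-79858915, minus strand): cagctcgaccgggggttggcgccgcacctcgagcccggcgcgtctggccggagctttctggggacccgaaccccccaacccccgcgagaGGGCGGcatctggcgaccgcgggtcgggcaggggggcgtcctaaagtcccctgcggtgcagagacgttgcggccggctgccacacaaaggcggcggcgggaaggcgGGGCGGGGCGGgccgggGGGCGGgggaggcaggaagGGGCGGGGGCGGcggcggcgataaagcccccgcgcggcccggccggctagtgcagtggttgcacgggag
Sparc (chr11:55420031-55420330, minus strand): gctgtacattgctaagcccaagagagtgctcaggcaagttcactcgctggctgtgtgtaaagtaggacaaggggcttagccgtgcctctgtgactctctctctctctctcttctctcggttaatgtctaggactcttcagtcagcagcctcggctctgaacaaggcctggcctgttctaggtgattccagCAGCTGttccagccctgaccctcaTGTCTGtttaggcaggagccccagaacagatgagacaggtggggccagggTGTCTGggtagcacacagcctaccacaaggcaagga

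The Postn window shown, the second of 2 listed for this gene, was at 53.0% GC. It held a TATA box starting 26 bases before the start that belongs to this window, and no other motif. This window begins at 54360857, inside the gene body, which begins at 54359267. The first Postn window, at 54359017 to 54359316, covers the beginning of the gene body and held none of the motifs, at 40% GC. The Thbs2 window held a TATA box starting at -126 and SMAD matches at -67 and -44, at 48.3% GC. That of Serpine2 was at 77.7% GC and held 6 GC boxes, of which those at -55 and -50 share a base. The Sparc window held an E-box match at -60 and SMAD matches at -36 and 15. TATAAA was found in windows of 3 of the 27 genes (11.1%), Postn, Thbs2 and Tnc. That is near the 13.6% of all 32851 windows and the 8.69% of the 9541 genes of the table with a window. GGGCGG was found in 21 of the 27, against 35.7% of all windows and 69.0% of the table's genes. AP-1 matches were found in 1 of the 27 (Efemp1, 3.7%), against 6.26% of the table's genes, and TEAD matches in 4 (14.8%) against 14.3%. E-box matches were found in 5 (18.5%) against 18.2%, and SMAD matches in 9 (33.3%) against 18.6%. The ATF4 core was in 1 (Fbln5, 3.7%) against 2.41%. A gene was counted if any of its windows held the motif, both among the 27 and among the table's genes. A match is a description of these letters and not a bound site.

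**Figure D3:**
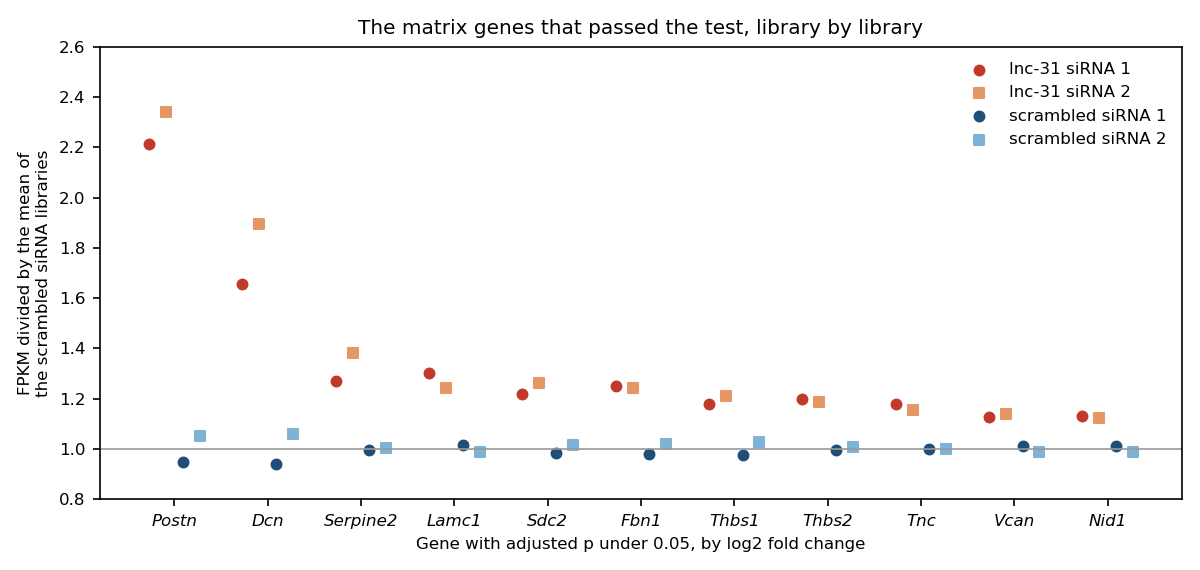
FPKM of the 11 matrix genes that passed the test, each divided by the mean of its scrambled siRNA libraries, 1 point per library. All lnc-31 siRNA points lie above all scrambled siRNA points of the same gene, with ratios of means from 1.13 for Nid1 to 2.28 for Postn.

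Of the elastic fibre and microfibril genes 1 of 8 tested rose (median log2 fold change 0.15). Fibrillin-1 (Fbn1), the main protein of microfibrils, was at 27.1 and 26.9 FPKM with lnc-31 siRNA and at 21.2 and 22.1 FPKM with scrambled siRNA (log2 fold change 0.31, SE 0.046, limma adjusted p = 0.018). The groups were separate, and the call was lost with any 1 library left out (adjusted p = 0.068 to 0.088). Fibrillin-2 (Fbn2), known from embryonic microfibrils, was at 0.708 and 0.686 FPKM with lnc-31 siRNA and at 0.421 and 0.427 FPKM with scrambled siRNA. This gene lay under the filter, and without a filter its log2 fold change was 0.25 (SE 0.085, adjusted p = 0.13). Fbn1 exceeded Fbn2 by a ratio of FPKM of 38.3 and 39.2 with lnc-31 siRNA and 50.4 and 51.8 with scrambled siRNA.

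Among the fibulins, glycoproteins that bridge microfibrils and elastin, the values went in both directions. Efemp1, or fibulin-3, was at 2.69 and 2.58 FPKM with lnc-31 siRNA and at 1.89 and 1.83 FPKM with scrambled siRNA. Its groups were separate with a ratio of means of 1.41, and its adjusted p lay just over the threshold (log2 fold change 0.34, SE 0.081, limma adjusted p = 0.0502). Efemp1 was called with a constant prior variance, with median of ratios scaling and with no filter. Fbln5 was at 2.64 and 2.67 FPKM with lnc-31 siRNA and at 1.95 and 2.32 FPKM with scrambled siRNA, and did not pass (limma adjusted p = 0.175). Efemp2, or fibulin-4, which helps lysyl oxidase to reach elastin and is the most abundant gene of this role, was at 64.8 and 66.6 FPKM with lnc-31 siRNA and at 68.3 and 76.5 FPKM with scrambled siRNA. It was lower in both lnc-31 siRNA libraries but did not pass (log2 fold change -0.14, SE 0.062, adjusted p = 0.21). Fbln1 and Fbln2 had log2 fold changes of 0.02 each with overlapping groups, Fbln2 at 30.7 and 29.5 FPKM with lnc-31 siRNA and 30.2 and 29.2 FPKM with scrambled siRNA. The microfibril proteins Emilin1 (log2 fold change 0.15, adjusted p = 0.17) and Mfap2 (0.15, adjusted p = 0.43) did not pass either.

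Of the 3 matrix proteoglycans 2 rose, and their order by fold change ran opposite to their level. Decorin (Dcn), a small proteoglycan that coats collagen fibrils and binds TGF-beta and myostatin, was at 12.98 and 14.9 FPKM with lnc-31 siRNA and at 7.38 and 8.30 FPKM with scrambled siRNA. The groups were widely separate, with a ratio of means of 1.78 (log2 fold change 0.75, SE 0.087, limma adjusted p = 0.00998), and the call was kept with any 1 library left out (adjusted p = 0.023 to 0.047). Versican (Vcan), a large chondroitin sulfate proteoglycan that binds hyaluronan, was at 48.8 and 49.3 FPKM with lnc-31 siRNA and at 43.8 and 42.8 FPKM with scrambled siRNA (log2 fold change 0.18, SE 0.040, adjusted p = 0.045). Its call was lost with any 1 library left out (adjusted p = 0.13 to 0.18) and with no filter. Biglycan (Bgn), the close relative of decorin, was at 645 and 661 FPKM with lnc-31 siRNA and at 621 and 638 FPKM with scrambled siRNA. The groups were separate by a narrow margin, and the difference did not pass (log2 fold change 0.05, SE 0.047, adjusted p = 0.49).

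Of the laminins, nidogens and basement membrane proteoglycans 2 of 9 rose (median log2 fold change 0.08). Lamc1, the gamma-1 chain shared by most laminins, was at 37.0 and 35.3 FPKM with lnc-31 siRNA and at 28.8 and 28.0 FPKM with scrambled siRNA (log2 fold change 0.34, SE 0.046, limma adjusted p = 0.014). The groups were separate, and the call was kept without lnc-31 siRNA 2 (adjusted p = 0.043) and lost without any other library (0.057 to 0.078). Nid1, which links laminin to collagen IV, was at 202 and 201 FPKM with lnc-31 siRNA and at 181 and 177 FPKM with scrambled siRNA (log2 fold change 0.17, SE 0.040, adjusted p = 0.047). It was separate between groups, lay just inside the threshold and was lost with any 1 library left out (0.14 to 0.20).

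The partner chains of Lamc1 did not pass. The beta chains Lamb1 and Lamb2 had log2 fold changes of 0.09 (adjusted p = 0.22) and 0.08 (0.25), and the alpha-5 chain Lama5 of 0.07 (0.44), each with separate groups. The alpha-2 chain Lama2, which is mutated in a congenital muscular dystrophy, was at 8.998 and 6.94 FPKM with lnc-31 siRNA and at 4.93 and 7.17 FPKM with scrambled siRNA. Its groups overlapped, and its SE of 0.18 was the largest of the 35 genes (log2 fold change 0.36, adjusted p = 0.24). Per library, the summed FPKM of the beta chains exceeded that of the gamma chain by a ratio of 1.86 and 1.89 with lnc-31 siRNA and of 2.20 and 2.28 with scrambled siRNA. The ratio of the measured alpha chains to the gamma chain was 0.667 and 0.606 with lnc-31 siRNA and 0.673 and 0.759 with scrambled siRNA, with Lama4 not included. Both ratios were lower in the lnc-31 siRNA libraries without overlap, the alpha to gamma ratio by a narrow margin. Lamc1, which was called higher, is the denominator of both, so the ratios are no result apart from its rise. Nid2 (log2 fold change 0.07), perlecan (Hspg2, 0.05) and agrin (Agrn, -0.00), which clusters acetylcholine receptors at the synapse, did not pass (adjusted p = 0.35, 0.50 and 0.97). Agrn was at 7.57 and 7.79 FPKM with lnc-31 siRNA and at 7.28 and 8.17 FPKM with scrambled siRNA, so that the lnc-31 siRNA libraries lay between the scrambled siRNA libraries.

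Of the cell surface proteoglycans and the heparan sulfate polymerase 1 of 9 rose (median log2 fold change 0.01). Syndecan-2 (Sdc2), a transmembrane proteoglycan, was at 117 and 121 FPKM with lnc-31 siRNA and at 94.4 and 97.6 FPKM with scrambled siRNA (log2 fold change 0.31, SE 0.043, limma adjusted p = 0.015). The groups were separate, and the call was kept without lnc-31 siRNA 1 (adjusted p = 0.042) and lost without lnc-31 siRNA 2 (0.061), scrambled siRNA 1 (0.085) or scrambled siRNA 2 (0.068). The other syndecans differed in direction and did not pass. Sdc1 was at 89.4 and 96.7 FPKM with lnc-31 siRNA and at 86.4 and 91.6 FPKM with scrambled siRNA, and Sdc3 had a log2 fold change of -0.02. Sdc4, a syndecan of focal adhesions, was at 73.1 and 75.7 FPKM with lnc-31 siRNA and at 79.6 and 79.4 FPKM with scrambled siRNA, lower without overlap (log2 fold change -0.09, SE 0.040, adjusted p = 0.18). Sdc2 gave 40.3% and 39.8% of the summed syndecan FPKM with lnc-31 siRNA and 34.8% and 34.9% with scrambled siRNA, the groups being separate.

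Glypicans, which are held on the membrane by a lipid anchor, showed no called difference. Gpc1 was at 218 and 224 FPKM with lnc-31 siRNA and at 213 and 223 FPKM with scrambled siRNA (log2 fold change 0.02, SE 0.045, limma adjusted p = 0.78), with overlapping groups. Gpc6 was at 6.33 and 6.72 FPKM with lnc-31 siRNA and at 5.90 and 6.23 FPKM with scrambled siRNA, with separate groups (log2 fold change 0.09, SE 0.066, adjusted p = 0.40). Neither it nor Gpc4 (log2 fold change -0.03, adjusted p = 0.83) passed. The polymerase subunit Ext1 was at 63.9 and 63.1 FPKM with lnc-31 siRNA and at 63.6 and 66.1 FPKM with scrambled siRNA (log2 fold change -0.03, SE 0.042, adjusted p = 0.68). Its partner Ext2 was at 34.2 and 34.1 FPKM with lnc-31 siRNA and at 33.5 and 34.3 FPKM with scrambled siRNA (log2 fold change 0.01, SE 0.041, adjusted p = 0.91). In both subunits the groups overlapped, and a p that misses the threshold does not show equal levels.

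**Figure D4:**
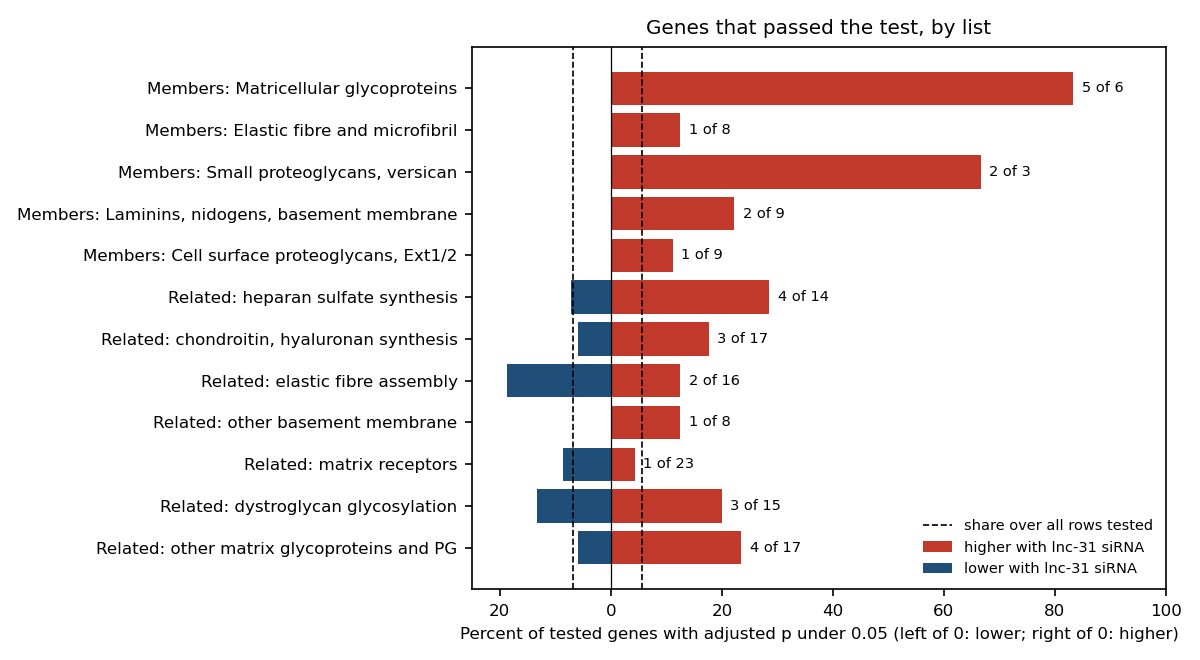
Percent of tested genes that passed the test (adjusted p under 0.05), higher with lnc-31 siRNA to the right and lower to the left of 0, for the 5 roles of the matrix genes and the 7 related lists (PG, proteoglycan). Dashed lines are the shares over all rows (5.64% higher and 6.78% lower). The role of matricellular glycoproteins has the largest share higher, 5 of 6, and no role has a bar to the left. Ctgf, Spp1 and Cyr61 are counted in the related list of other matrix glycoproteins.

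Other genes of matrix assembly, from 7 lists that together hold 110 tested genes, gave 18 that rose and 10 that fell. With any 1 library left out, 5 of these 28 stayed called, namely Ugdh, Tgm2, Itga3, Fmod and Aspn. In the list of other matricellular genes, glycoproteins and proteoglycans 4 of 17 rose and 1 fell (median log2 fold change 0.20). Asporin (Aspn), a small leucine-rich relative of decorin, was at 5.39 and 6.02 FPKM with lnc-31 siRNA and at 2.26 and 2.85 FPKM with scrambled siRNA (log2 fold change 0.92, limma adjusted p = 0.00999). Fibromodulin (Fmod), of the same family, was at 3.43 and 3.43 FPKM with lnc-31 siRNA and at 1.72 and 1.55 FPKM with scrambled siRNA (log2 fold change 0.75, adjusted p = 0.0092). Osteoglycin (Ogn, log2 fold change 0.36) and Spon2 (0.38) also rose, and Ctgf fell by 0.33 on the log2 scale. The call of Ogn was kept in 3 of the 4 fits with 1 library left out. Prelp (log2 fold change 0.32, limma adjusted p = 0.115) and Omd (0.40, 0.097), small leucine-rich proteoglycans of the same list named after their values were seen, did not pass. Without overlap, 10 of the 17 were higher and 4 lower. The 4 were Ctgf and, without passing, Spp1 (log2 fold change -0.21, limma adjusted p = 0.101), Cyr61 (-0.16, 0.072) and Ecm1 (-0.23, 0.116).

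Genes of heparan sulfate synthesis and editing numbered 4 higher and 1 lower of 14. Glce, the epimerase that makes iduronic acid, was at 27.8 and 27.7 FPKM with lnc-31 siRNA and at 21.0 and 19.5 FPKM with scrambled siRNA (log2 fold change 0.44, limma adjusted p = 0.010). The sulfatases Sulf2 (log2 fold change 0.47) and Sulf1 (0.34), which remove sulfate from finished chains, and B4galt7 (0.27) rose, and Extl2 fell by 0.26. Of the genes of chondroitin, dermatan and hyaluronan synthesis and sulfate supply 3 of 17 rose and 1 fell. Ugdh, which makes the UDP-glucuronate that all these chains need, was at 100.04 and 99.2 FPKM with lnc-31 siRNA and at 69.6 and 73.0 FPKM with scrambled siRNA (log2 fold change 0.48, adjusted p = 0.0057). The sulfotransferases Ust (0.46) and Chst11 (0.25) rose, and Slc35b2, which carries the sulfate donor into the Golgi, fell by 0.27.

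Elastic fibre assembly and crosslinking genes numbered 2 higher and 3 lower of 16. The transglutaminase Tgm2 was at 8.69 and 8.23 FPKM with lnc-31 siRNA and at 4.404 and 4.51 FPKM with scrambled siRNA (log2 fold change 0.79, limma adjusted p = 0.0056). Lysyl oxidase (Lox) had a log2 fold change of 0.20 and rose, while Mfap3l fell by 0.23 and the latent TGF-beta binding proteins Ltbp1 and Ltbp2 fell by 0.25 and 0.22. Among matrix receptors 1 of 23 rose and 2 fell. The laminin-binding integrin subunit Itga3 was at 17.3 and 16.7 FPKM with lnc-31 siRNA and at 26.95 and 25.3 FPKM with scrambled siRNA, and fell by 0.59 on the log2 scale (adjusted p = 0.0057). Cspg4 fell by 0.33, and dystroglycan (Dag1), a laminin receptor of muscle, rose by 0.23. Itga7, the main laminin-binding integrin subunit of muscle, was at 48.8 and 46.6 FPKM with lnc-31 siRNA and at 42.6 and 44.7 FPKM with scrambled siRNA, and did not pass (log2 fold change 0.13, limma adjusted p = 0.14). Of 15 tested genes that build the laminin-binding sugar of dystroglycan or supply it, those called included Dpm2 (log2 fold change 0.40) and Tmem5 (0.22), which rose, and Large, the enzyme that extends the sugar, and Dolk, which fell by 0.39 and 0.22. Among 8 other basement membrane genes Smoc2 rose (log2 fold change 0.52).

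Markers of differentiated muscle were higher with lnc-31 siRNA. All 8 of that list rose, with a summed FPKM of 400.0 and 412.6 with lnc-31 siRNA against 219.6 and 248.97 with scrambled siRNA. The 7 measured myoblast markers summed to 447 and 459 FPKM with lnc-31 siRNA and 378 and 382 FPKM with scrambled siRNA, and 4 of them rose. Des alone was at 202 and 209 FPKM with lnc-31 siRNA and at 175 and 172 FPKM with scrambled siRNA. Without overlap, 5 of the 7 were higher and 2 lower. The 2 lower were Sgcd and Myf5 (35.2 and 35.4 FPKM against 38.6 and 37.5 FPKM), and neither passed. The fibroblast list, of which 6 of 9 were measured, summed to 179 and 192 FPKM with lnc-31 siRNA and 180 and 177 FPKM with scrambled siRNA. The groups overlapped in that sum, and 1 of its 5 tested genes rose, Pdgfrb. Its members Thy1, Tcf21 and Meox1 were not analysed here, and Dpt was at 0.623 and 0.814 FPKM with lnc-31 siRNA and at 0.179 and 0.189 FPKM with scrambled siRNA. Among osteoblast or chondrocyte markers 1 of 3 tested rose (Sox9), and none of 2 blood, 2 adipocyte, 1 epithelial and 1 neural or glial marker tested was called by limma. The epithelial marker Krt8 lay under the filter, at 0.540 and 0.517 FPKM with lnc-31 siRNA and at 0.0993 and 0.143 FPKM with scrambled siRNA. With no filter, 1 of 2 epithelial, 2 of 6 fibroblast and 0 of 3 osteoblast or chondrocyte markers were called higher. The part of muscle differentiation or of fibroblast-like cells in the matrix differences was not tested.

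In the pull-down, peaks in the gene bodies of the 36 genes were counted, with 1 library per probe set and therefore with no replicate check and no test. With lnc-31 probes 1 gene, Ext1, held peaks, and with lacZ probes 4 genes did, Ext1, Gpc6, Sdc2 and Vcan. Over the 12323 gene names of the table that matched a RefSeq gene, 1.78% held a lnc-31 probe peak and 1.68% a lacZ probe peak. None of the 11 genes that rose held a lnc-31 probe peak, and Sdc2 and Vcan held 1 lacZ probe peak each.

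Ext1 (chromosome 15, 53068261 to 53346183, mm10) held 6 of the 596 lnc-31 probe peaks and 48 of the 476 lacZ probe peaks. That was more lacZ probe peaks than in any other RefSeq gene, the next being Ebf1 with 18, and 10.1% of the whole list. The 48 covered 14600 bases, with a median distance of 3.20 kb from start to start, and 32 of them were 200 bases wide. Of all 596 lnc-31 probe peaks, 54 overlapped a lacZ probe peak. In Ext1 all 6 did, so that none of the 36 genes held a lnc-31 probe peak outside lacZ probe peaks. These 6 lnc-31 probe peaks were 200 to 600 bases wide. The one with the smallest deposited p-value, 3.53e-06, lay at 53200801 to 53201000 inside a lacZ probe peak of 1000 bases at 53200601 to 53201600. Peaks of both sets began 81.5 kb (lnc-31 probes) and 81.3 kb (lacZ probes) from the low-coordinate end of the 277.9 kb gene body and ran to 259 and 276 kb. The stretch of the gene body below these positions held no peak of either set.

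**Figure D5:**
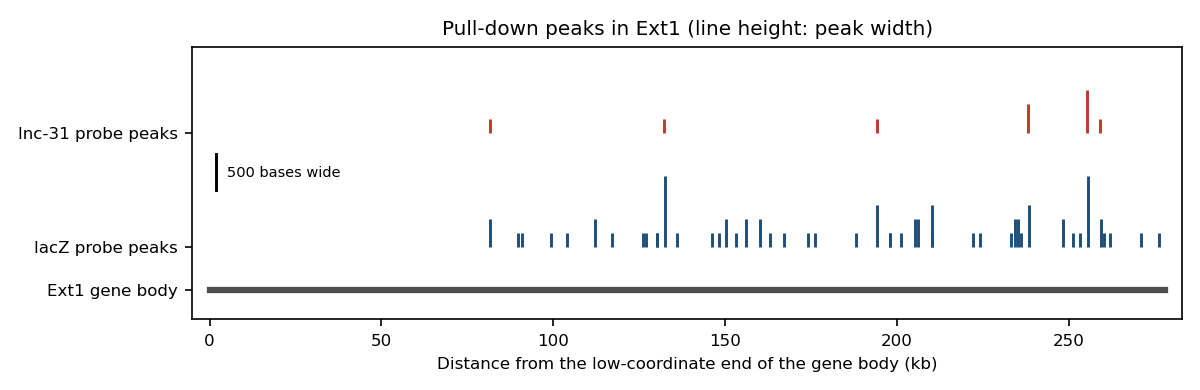
Position of the 6 lnc-31 probe peaks (upper row) and the 48 lacZ probe peaks (lower row) along the 277.9 kb gene body of Ext1, as distance from its low-coordinate end. The height of each line is the width of the peak, and each lnc-31 probe peak stands over a lacZ probe peak.

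Chromosome 15 as a whole held 32 (5.37%) of the lnc-31 probe peaks and 131 (27.5%) of the lacZ probe peaks, and 26 (4.41%) and 83 (19.4%) of those outside Ext1. The part of this chromosome-wide difference in the Ext1 count was not tested. Gpc6 (chromosome 14, 116924920 to 117979529), the longest of the genes at 1055 kb, held 0 lnc-31 probe peaks and 8 lacZ probe peaks, which placed it at rank 6 by lacZ probe peaks. Per 100 kb it held 0.759 lacZ probe peaks, against 17.3 in Ext1. Sdc2 (chromosome 15) had a lacZ probe peak at 32952201 to 32952400, and Vcan (chromosome 13) at 89707201 to 89707400. Lama2, with a gene body of 635.9 kb, held no peak of either set. Of the 287 genes of the table at least as long as Ext1, 4.18% held a lnc-31 probe peak and 10.8% a lacZ probe peak.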

How the data were processed

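Proliferating C2C12 cells were profiled with lnc-31 or scrambled siRNA (2 libraries each), and RNA from a lnc-31 or lacZ probe pull-down was given as peak lists (1 library each). The authors deposited FPKM values. Pooled over the siRNA and pull-down libraries, the submitters' processing notes name the build mm10 and Cuffdiff, TopHat2, BWA, Bowtie2, Picard, cutadapt, Trimmomatic and CASAVA. The tools are listed here without assignment to either experiment, and no order or versions are given. Per the labels' protocols, library kits differed, being stranded and mRNA-selecting for siRNA samples and amplifying total cDNA for the pull-down. The authors deposited peaks with a final column that no header names, treated here as a p-value per peak because its values lie above 0 and at most at 0.01. Which program called peaks is not stated in the labels. Depth is unknown, so no counting interval is given.

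The filter kept rows averaging at least 1 FPKM. On log2(FPKM + 1), groups were tested by limma 3.58.1 under R 4.3.3 (trended prior variance, two-sided, Benjamini-Hochberg adjustment over all rows, threshold 0.05). Fold changes are on this log2 scale, where low genes appear to change less than they do. Peaks were joined with bedtools 2.31.1 to RefSeq gene bodies (GRCm38.p6, which shares coordinates with mm10), which come without exons, at a minimum overlap of 1 base. Tables and plots were made in Python 3.11.15 using matplotlib 3.10.9, numpy 2.4.6 and pandas 2.3.3. The genes, roles, related lists, markers and motifs were chosen with earlier results of these data known, and all 36 genes found are named, with full values for called genes, the most abundant of each role and those with peaks. Up to 4 called genes of each related list were to be named, by smallest p. The remaining called ones (B4galt7, Ltbp2, Tmem5 and Ctgf) were added after their values were seen. So were the uncalled Itga7, Prelp, Omd, Spp1, Cyr61 and Ecm1. The values of 1 called gene of these lists are not reported here. Alternatives tried comprised no filter, pseudocounts of 0.1 or 0.5, a filter at 5 FPKM, median of ratios scaling, quantile normalization, the replicate number as a block, a prior variance held constant over expression, each library left out, and for peaks a minimum of 50% of the peak, a p of at most 0.001 and peaks without overlap with the other probe set.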

Additional observations from a re-analysis of the deposited data

How the results depend on the processing

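Limits come from 2 libraries per group. With 1 library left out, the 11 matrix genes that rose became 2 to 4, and the 649 rows that rose and 780 that fell became 132 to 266 and 97 to 242, with 3 libraries left in each fit. The 11 kept their direction in all 132 of their alternatives, which is no independent check. Their groups did not overlap, so leaving out 1 library could not reverse the direction. A change of filter, prior variance or block left the estimate itself unchanged. Each log2 fold change that changed sign with a library left out belonged to a gene that did not pass: Gpc1 (-0.0106 to 0.0563), Ext2 (-0.0069 to 0.0246), Sdc3 (-0.0614 to 0.0214), Fbln1 (-0.0104 to 0.0477), Fbln2 (-0.00977 to 0.0458) and Agrn (-0.0788 to 0.0689).

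Over the other alternatives the count of matrix genes that rose was 8 with a constant prior variance (Tnc, Thbs1, Vcan and Nid1 lost, Efemp1 gained), 10 with no filter (Vcan and Nid1 lost, Efemp1 gained), 11 with quantile normalization (Nid1 lost, Sparc gained), 13 with median of ratios scaling (Sparc and Efemp1 gained) and 11 with either pseudocount or a mean of 5 FPKM, and none fell. The replicate numbers share only a number, since the labels tie them to no batch and the deviations of same-numbered libraries correlated at -0.0944 across 11500 rows. With the replicate block 12 matrix genes rose (Sparc gained), 728 rows rose and 885 fell. The 6 lnc-31 probe peaks in these genes became 0 once those overlapping lacZ probe peaks were left out, and the 58 lacZ probe peaks were 40 at a p of at most 0.001 and 52 without those overlapping the other set.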
